A study of Mus musculus with 42 samples.

Results

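The Hox genes of the 4 mouse clusters were followed through a culture of D3 embryonic stem cells, a line derived from the blastocyst, that was directed towards osteoblasts, the cells that make bone. Members were all genes whose single platform symbol was Hox, then a, b, c or d, then a number from 1 to 13. This gave 33 genes of 18193 with a single symbol on the 2 chips, and each was represented by 1 probe set, the one with the highest mean signal, taken from the 430A chip where it had one. Of these, 31 were on 430A, and Hoxc10 and Hoxd3 were on 430B alone. RNA was taken on 7 days (days 4 to 6, 8, 16, 25 and 30) with 3 replicates a day, and each of the 21 RNA samples was hybridised to both Affymetrix arrays, 42 in all. Ascorbic acid, beta-glycerophosphate and vitamin D3 are given as medium supplements for every day, whereas the sample titles carry VD3 from day 6 onwards, so vitamin D3 as named there and the later days cannot be told apart. Cultures without these supplements were not analysed here. The labels give a clone as the means of purification and leave the contaminating cell type undetermined. They do not state whether replicates are separate cultures, so each p-value measures the spread between these samples, which may be technical.

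Hox genes encode homeodomain transcription factors that give cells of the embryo their position along the head to tail axis. Within each cluster the genes lie in the order in which they act: anterior genes are switched on first and reach furthest forward, and posterior genes are switched on later and further back. Hox proteins bind DNA together with Pbx and Meis proteins, and retinoic acid, caudal proteins and Polycomb complexes are well known regulators of the clusters. In the skeleton they pattern the vertebrae and the limbs, in which the most posterior genes act furthest from the trunk. In the mouse the a, b, c and d clusters are on chromosomes 6, 11, 15 and 2. The terms anterior (positions 1 to 3), central (4 to 8) and posterior (9 to 13) are used below.

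The values are MAS5 signals on a log2 scale, and a level of 1 probe set cannot be set against that of another. Days were compared with limma over all probe sets of a chip, with a threshold of 0.05 on the adjusted p, and only probe sets above their array's 40th percentile on at least 3 arrays were tested. Where a value on the lower day lay under the chip's 20th percentile (log2 6.95 on 430A and 7.67 on 430B), it was raised to that percentile and the fold is written as "at least". These are bulk samples, so fewer cells of a type and less RNA per cell cannot be told apart.

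A few features of the arrays touch the results. On 430A days 4 and 5 were scanned together, days 6, 8 and 16 together, and days 25 and 30 together apart from replicate 3 of day 25. On 430B too, days 6 and later were scanned apart from day 4. For days 6 to 30 against day 4, and for day 30 against day 6, scan batch and day therefore cannot be told apart. Day 16 against day 6 lies within a batch. Replicate 3 of day 5 had the lowest value of its day in 10 of the 18 Hox genes tested on 430A (55.6%), against 33.4% of all probe sets tested. Replicate 3 of day 25 was lowest in 9 of the 18 (50%), against 33.3%. Replicate 3 of days 4 and 6 was lowest in 7 of the 18 each (38.9%), close to the 37.9% and 35.2% of all probe sets. The log2 ratio of 3′ to 5′ Gapdh probe sets on 430A, a sign of RNA integrity, was 2.63 ± 0.37 on day 4, 2.73 ± 0.47 on day 8, 3.84 ± 0.38 on day 25 and 3.27 ± 0.19 on day 30 (SD, n = 3), and its part in the results was not tested.

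The chosen probe set passed the filter on low signal for 20 of the 33 genes. These were Hoxa3, Hoxa9, Hoxa10, Hoxa11 and Hoxa13 (5 of 9 in cluster a), Hoxb1 to Hoxb7 (7 of 9 in cluster b), Hoxc6, Hoxc8, Hoxc9 and Hoxc10 (4 of 7 in cluster c), and Hoxd1, Hoxd3, Hoxd8 and Hoxd9 (4 of 8 in cluster d). By position they were 6 of 7 anterior, 7 of 12 central and 7 of 14 posterior genes. The 13 whose chosen probe set did not pass were Hoxa2, Hoxa4, Hoxa5, Hoxa7, Hoxb9, Hoxb13, Hoxc4, Hoxc5, Hoxc13, Hoxd10, Hoxd11, Hoxd12 and Hoxd13. For Hoxa5, Hoxc5 and Hoxd13 another probe set, on 430B, did pass. Neither of the 430B probe sets of Hoxc5 was called in the F test (adjusted p 0.676 and 0.301). Hoxa6, Hoxb8, Hoxc11, Hoxc12 and Hoxd4 were not analysed here.

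**Figure D1:**
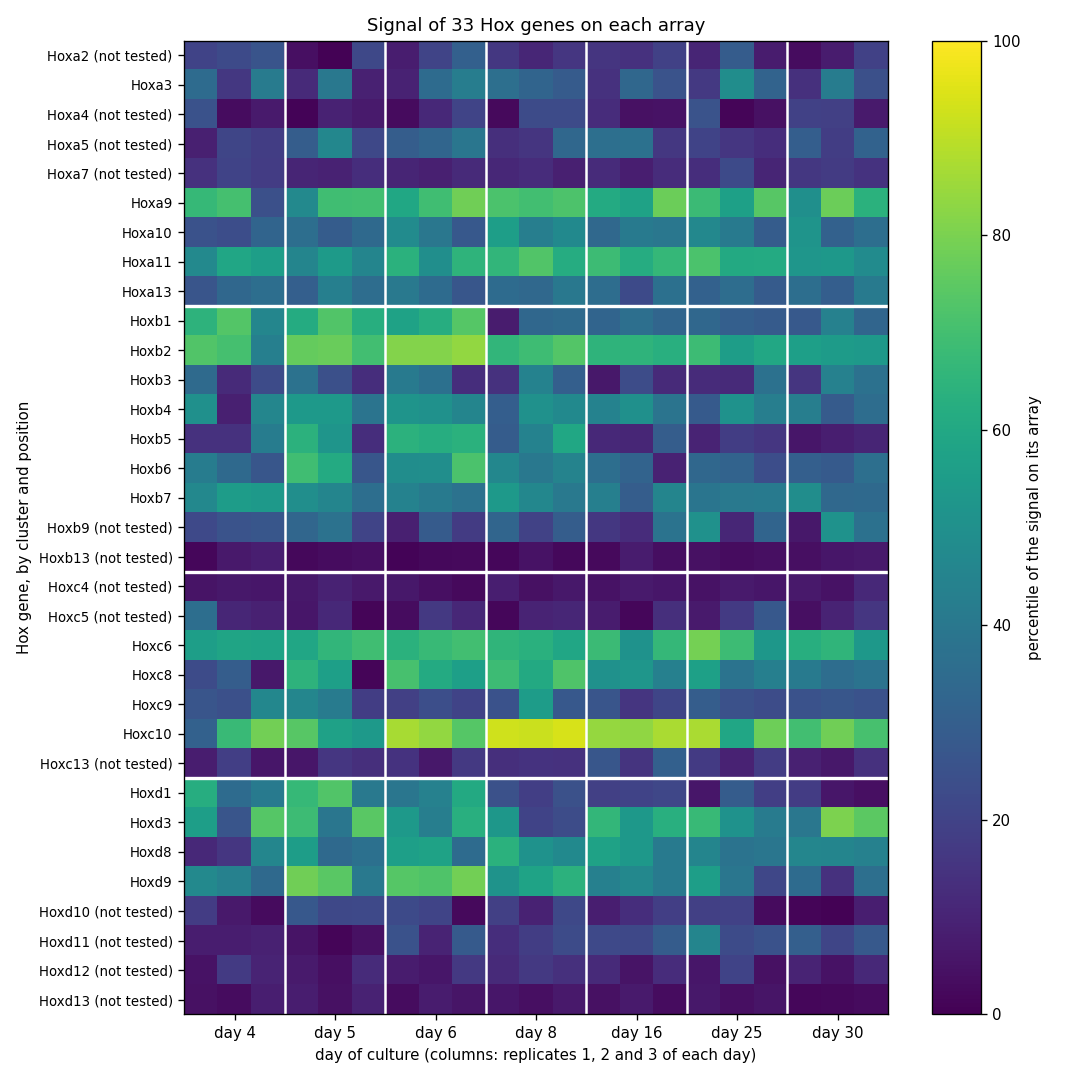
Heat map of the chosen probe set of each of 33 Hox genes (rows, by cluster and position) on 21 arrays (columns, 3 replicates a day), coloured by the percentile of the signal on its array. Hoxb2 and Hoxd9 are brightest on days 5 and 6 and Hoxc10 on day 8, Hoxb1 and Hoxd1 darken from day 8, and the day means of Hoxb13, Hoxc4 and Hoxd13 stay under the 8th percentile.

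Hox genes called higher than on day 4 were called mostly on days 6 and 8. Genes of clusters b and d, among them Hoxb2, Hoxb5, Hoxd1 and Hoxd9, were lower by day 30 than on day 6. That last comparison was added after the values were seen, and its days were scanned apart. The F test over the 7 days called 8 of the 20 tested: Hoxa11, Hoxb1, Hoxb2, Hoxb5, Hoxd1, Hoxd8 and Hoxd9 on 430A, and Hoxc10 on 430B. The same test called 36.2% of all probe sets tested on 430A and 9.72% on 430B, so 7 of 18 on 430A is close to the background. No Hox gene was called on day 5 against day 4, where 3 of 20 had an unadjusted p under 0.05 and 0.00599% of all 430A probe sets were called. Without the 3 arrays numbered 3 on days 4 to 6, Hoxc8 and Hoxd8 were called higher on day 5 (2 of 20, with 0.335% of all 430A probe sets called).

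On day 6 against day 4, 3 of 20 genes rose (Hoxb2, Hoxb5 and Hoxd8) and none fell, where 7.45% of all 430A probe sets were called and 4.05% rose, and 1.08% were called on 430B. On day 8 against day 4, 4 rose (Hoxa10, Hoxc8, Hoxc10 and Hoxd8) and Hoxb1 fell, where 16.4% of 430A probe sets were called, 9.63% higher and 6.81% lower, and 2.21% rose on 430B. On day 16 against day 4 only Hoxd8 was called, as higher, with 25.5% of all 430A probe sets called and 14.1% higher. Hoxd8 was also called higher and Hoxd1 lower on day 25, with 26.4% called in either direction on 430A, and on day 30, with 28.1%. At these 3 later days the share of Hox genes called was under the background. Without the 3 arrays numbered 3 on days 4 to 6, 4 Hox genes were called on each of these days, and 22.9%, 23.8% and 26.1% of all 430A probe sets on days 16, 25 and 30.

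The median difference over the 20 genes, as log2, was 0.79 on day 6 against day 4, with 17 of 20 above 0, and 0.66 on day 8 against day 4, with 16 of 20 above 0. By day 30 against day 4 it was 0.09, with 10 of 20 above 0. Over all 430A probe sets tested these medians were 0.07, 0.04 and -0.03, and 54.7%, 52.1% and 48.5% of the differences were above 0. The filter let in genes that were high on any day, so these summaries describe only the members that passed. Without the filter, over all 33 genes, the medians on days 6, 8 and 30 were 0.32, 0.54 and -0.02.

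**Figure D2:**
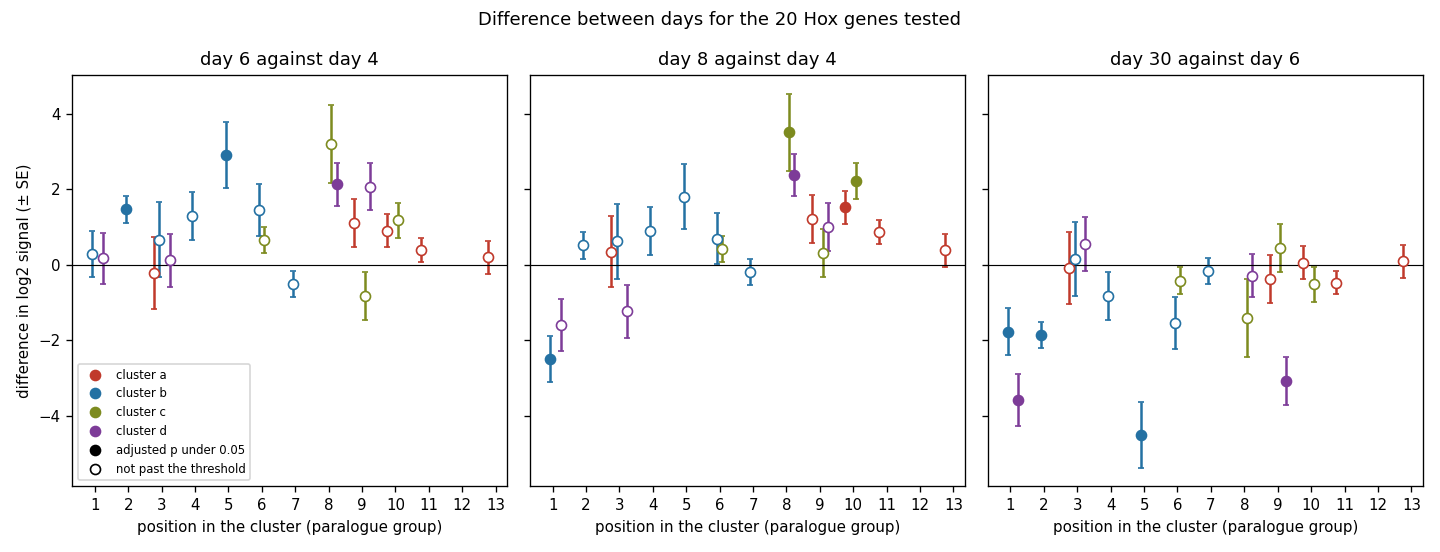
Difference in log2 signal (± SE, from limma) by position in the cluster for the 20 Hox genes tested, for day 6 against day 4, day 8 against day 4 and day 30 against day 6; colours are clusters and filled points passed an adjusted p of 0.05. On day 8 the filled points above 0 lie at positions 8 and 10 and the one below 0 is Hoxb1, and on day 30 against day 6 the 5 filled points, all below 0, lie at positions 1, 2, 5 and 9.

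Among the anterior genes, Hoxd1 and Hoxb1 were at their highest on days 4 to 6 and lower afterwards. Hoxd1, a gene of the cluster d 3′ end, had signals of 9.80, 8.34 and 8.47 on day 4, 9.99, 10.55 and 8.55 on day 5, and 8.58, 8.81 and 9.74 on day 6. It was at 7.50, 6.91 and 7.43 on day 8, 6.96, 7.15 and 7.17 on day 16, 5.53, 7.93 and 6.75 on day 25, and 6.70, 5.10 and 4.61 on day 30. All replicates of day 8 and later were below all of those of days 4 to 6. Hoxd1 averaged 5.47 ± 1.09 on day 30 and 8.87 ± 0.81 on day 4 (SD, n = 3 each), a fall of at least 3.79-fold (log2 difference -3.40 ± 0.68, SE, adjusted p 8.65e-04) that held without each array in turn. The fall on day 25 (-2.13, adjusted p 0.0256) was lost without day 4 replicate 1, day 25 replicate 1 or day 25 replicate 3, at 0.12, 0.132 and 0.0543. On day 16 against day 6, within 1 scan batch, the difference of -1.95 had an adjusted p of 0.0724 in the fit to all arrays and 0.0128 in a fit to the arrays of that batch alone.

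Hoxb1, which patterns the hindbrain, had signals of 9.93, 10.49 and 8.74 on day 4, 9.60, 10.54 and 9.77 on day 5, and 9.59, 9.85 and 10.55 on day 6. It was at 5.22, 8.27 and 8.19 on day 8, 8.12, 8.49 and 8.15 on day 16, 8.50, 8.03 and 7.80 on day 25, and 7.74, 8.81 and 8.14 on day 30. Replicate 1 of day 8 was far under the other two of its day, and no array from day 8 on reached the lowest of days 5 and 6. Hoxb1 averaged 7.23 ± 1.74 on day 8 and 9.72 ± 0.89 on day 4, a fall of at least 3.77-fold (log2 difference -2.49 ± 0.61, adjusted p 0.00822). Without day 8 replicate 1 the fold was 2.81 and the adjusted p 0.056. Between day 8 and day 6, scanned together, the difference was -2.77 with an adjusted p of 0.0779.

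Both genes stand at the 3′ end of their cluster and had calls for a fall, and their RefSeq promoters (250 bases before to 50 after the start, GRCm38.p6) are shown to set them beside each other. Capitals mark TGATNNAT, a site that Pbx and Hox proteins bind together. The search took both strands and also AGGTCA, a site of retinoid and other nuclear receptors, and TTTATG, a caudal site, neither of which is in these 2 windows. Hoxd1 is at chr2:74762730-74763029 and Hoxb1 at chr11:96365508-96365807, both on the plus strand.
Hoxd1: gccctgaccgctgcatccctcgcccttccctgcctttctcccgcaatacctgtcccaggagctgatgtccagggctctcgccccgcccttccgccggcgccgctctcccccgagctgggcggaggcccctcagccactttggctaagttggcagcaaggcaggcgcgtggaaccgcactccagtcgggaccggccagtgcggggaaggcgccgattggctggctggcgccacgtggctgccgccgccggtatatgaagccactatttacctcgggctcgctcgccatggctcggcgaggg
Hoxb1: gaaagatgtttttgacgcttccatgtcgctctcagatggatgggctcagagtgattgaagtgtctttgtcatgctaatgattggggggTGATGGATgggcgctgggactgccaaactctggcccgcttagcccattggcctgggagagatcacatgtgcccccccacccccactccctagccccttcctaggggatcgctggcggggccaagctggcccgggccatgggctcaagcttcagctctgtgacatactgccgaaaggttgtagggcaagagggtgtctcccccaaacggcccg
The Hoxb1 window held 1 match, starting 162 bases before the gene start. As background, the mouse Hoxb1 gene is known for an element just upstream at which its own protein acts with Pbx. In the table of promoters, 8.85% of the 32851 windows held TGATNNAT, 16.3% held AGGTCA and 11.9% held TTTATG, and of the 24 Hox windows, 4, 7 and 5 did. Hox genes matched to the table were 19 of the 33. A match describes the letters only.

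Hoxb2, which acts in the hindbrain under Hoxb1 among others, was highest on day 6. Its signals were 10.50, 10.28 and 8.61 on day 4, 10.73, 10.86 and 10.23 on day 5, and 11.18, 11.24 and 11.39 on day 6. They were 10.05, 10.31 and 10.57 on day 8, 10.03, 10.06 and 9.93 on day 16, 10.33, 9.46 and 9.67 on day 25, and 9.45, 9.41 and 9.38 on day 30. Day 6 lay above every array of all other days. Hoxb2 rose 2.78-fold on day 6 against day 4 (11.27 ± 0.11 on day 6 and 9.80 ± 1.04 on day 4, adjusted p 0.0181). That call was lost without day 4 replicate 3, where the fold was 1.84 and the adjusted p 0.0577, and without day 6 replicate 1 or 2, at 0.0709 and 0.0718; without the 3 arrays numbered 3 on days 4 to 6 it was 0.0861. It fell 2.40-fold on day 16 against day 6 (log2 difference -1.27 ± 0.36, adjusted p 0.025, and 0.00178 in a fit to their scan batch alone). The adjusted p of this fall was 0.0513 to 0.0855 when any of the 6 arrays of days 6 and 16 was left out. Day 30 against day 6, a comparison added after the values were seen, gave a fall of 3.62-fold (log2 difference -1.86, adjusted p 9.19e-04).

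The other 3 anterior genes tested, Hoxa3, Hoxb3 and Hoxd3, which act in the neck and pharyngeal arches or cervical vertebrae, were called in no comparison. Their day means ranged over 1.59, 1.73 and 1.90 log2 units. By chosen probe set, Hoxb3 and Hoxd3 had their highest day mean on day 30 and Hoxa3 on day 8. The chosen probe set of Hoxb3 was low, with a day 16 mean of 6.16, under the floor of log2 6.95. Another Hoxb3 probe set, on 430B, took a different course, highest on day 5 (11.10) and lowest on day 8 (9.92). It was not called in the F test (adjusted p 0.549). The 430B probe sets of Hoxa3 were highest on day 4 (11.27) and day 16 (10.14). In RefSeq the Hoxb3, Hoxa3 and Hoxd3 genes span or overlap other Hox genes of their cluster, so a probe set might read more than 1 transcript.

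Among the central genes Hoxb5 and Hoxd8 rose by day 6, after which Hoxb5 and Hoxb6 fell, while Hoxd8 was called higher than on day 4 on each later day, though single day 4 arrays decided the calls on days 6, 25 and 30. Hoxb5, which acts in the neck and shoulder region and the lung, had signals of 6.14, 6.32 and 8.53 on day 4, 9.79, 9.30 and 6.02 on day 5, and 9.96, 9.86 and 9.91 on day 6. It was at 7.86, 8.90 and 9.66 on day 8, 5.87, 5.84 and 7.93 on day 16, 6.06, 6.79 and 6.39 on day 25, and 5.06, 5.42 and 5.74 on day 30. Day 5 was split, with replicate 3 at the level of the low day 4 arrays, and the 3 arrays of day 6 were nearly equal. The rise on day 6 against day 4 was at least 5.41-fold (9.91 ± 0.05 on day 6 and 7.00 ± 1.33 on day 4, log2 difference 2.91 ± 0.87, adjusted p 0.0452). This call was narrow and was lost in 12 of 21 fits without 1 array, up to 0.155 without day 4 replicate 2. These arrays were day 4 replicates 1 and 2, day 5 replicate 2, all of day 6, day 8 replicates 2 and 3, day 25 replicate 3 and all of day 30. It was also lost after quantile normalization (0.0638), after median centring (0.0609), with a filter at the 60th percentile (0.0682) and with no filter (0.0503). Leaving out replicate 3 of days 4 to 6 gave a log2 difference of 3.68 with an adjusted p of 0.0113.

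The fall of Hoxb5 on day 16 against day 6, within 1 scan batch, was at least 6.21-fold (log2 difference -3.36, adjusted p 0.0148, and 0.0043 in that batch alone). It was lost without day 6 replicate 3 (0.0517), day 16 replicate 1 (0.0763) or day 16 replicate 2 (0.0648). On day 30 Hoxb5 was at 5.41 ± 0.34, against 9.91 ± 0.05 on day 6, at least 7.79-fold lower (log2 difference -4.50, adjusted p 9.48e-04), which held without each array in turn. Hoxb6, a neighbour of Hoxb5 in the cluster with a role in the thoracic region, fell at least 3.29-fold on day 16 against day 6 (adjusted p 0.0435, and 0.0485 in the batch alone). Its signals were 8.38, 8.19 and 5.56 on day 16 and 9.10, 9.12 and 10.44 on day 6. Replicate 3 sets both extremes, low on day 16 and high on day 6, and without it on either day the adjusted p was 0.235 or 0.199. In all, 10 of the 21 fits without 1 array lost this call, those without any array of days 6, 8 or 30 and without day 16 replicate 3. It was also lost with no filter (0.0583) and without the 3 arrays numbered 3 on days 4 to 6 (0.105). Both genes overlap the antisense gene Hoxb5os in RefSeq.

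On day 16 against day 6, 3 of 20 Hox genes fell, where 11.3% of all 430A probe sets were called and 4.5% fell (7.23% in the batch alone). On day 30 against day 6, 5 of 20 fell, where 20.3% were called and 10.7% fell. The batch alone called 5 of the 18 Hox genes tested on 430A as lower: Hoxb2, Hoxb5, Hoxb6, Hoxd1 and Hoxd9. On day 30 against day 6 the 5 that fell were Hoxb1, Hoxb2, Hoxb5, Hoxd1 and Hoxd9. Hoxb1 there (-1.77, adjusted p 0.0459) was lost in 14 of 21 fits without 1 array: any of days 5, 6 or 16, day 4 replicate 1, day 25 replicates 2 and 3, and day 30 replicates 1 and 3. It was also lost with no filter (0.0635) and without the 3 arrays numbered 3 on days 4 to 6 (0.145).

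**Figure D3:**
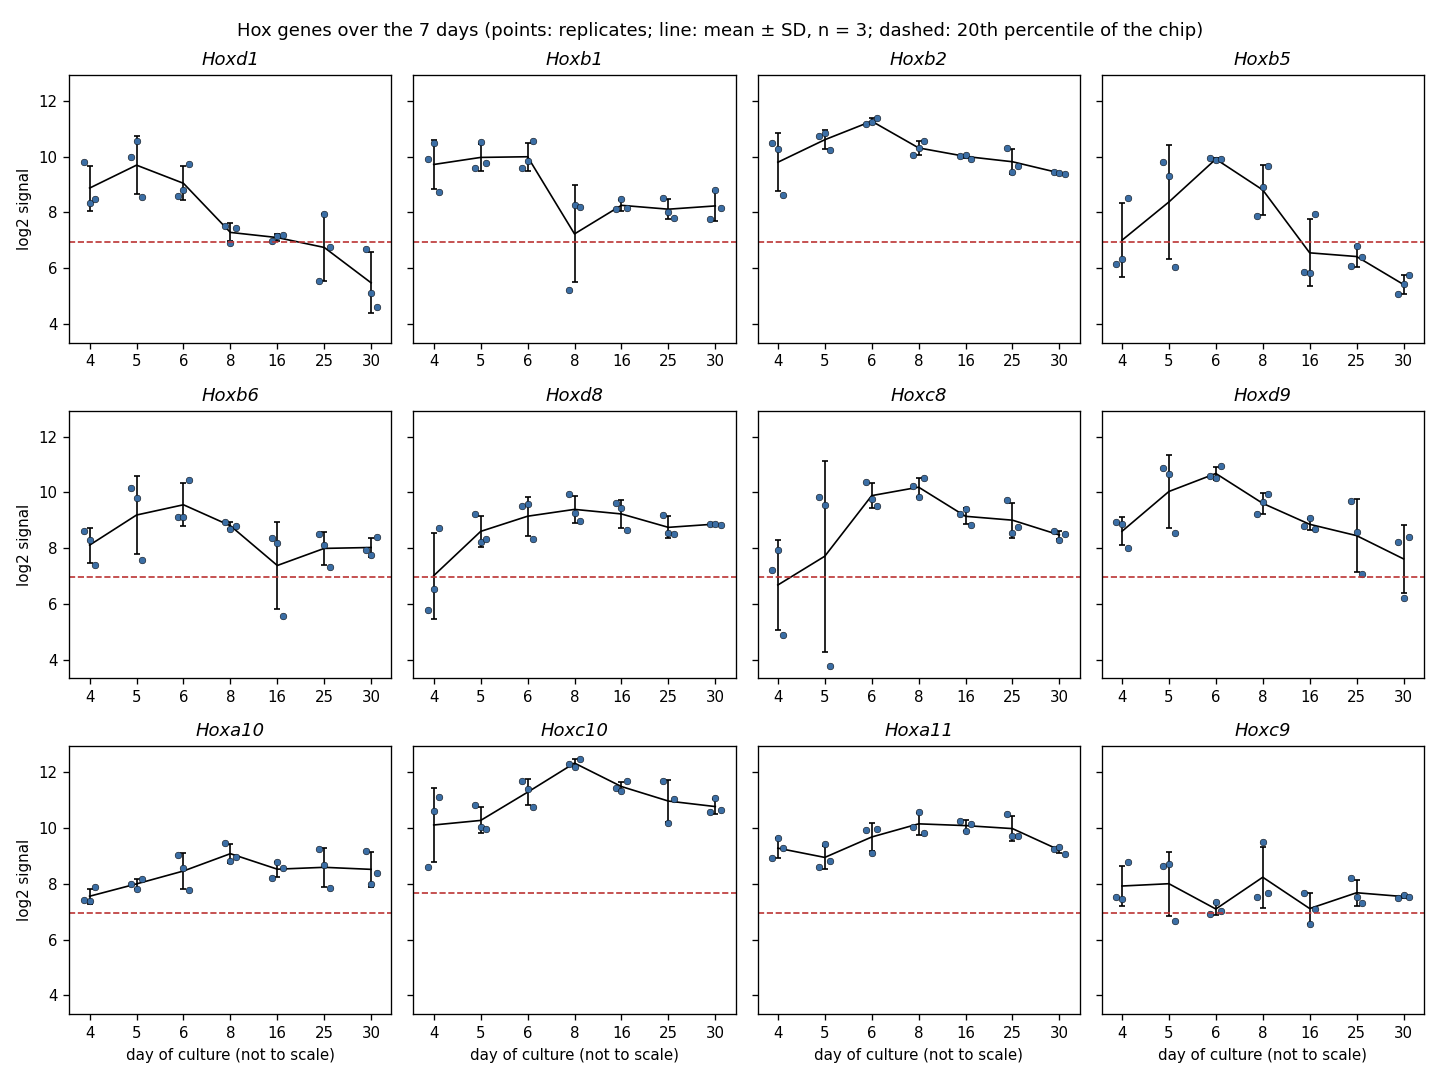
Log2 signal of 12 Hox genes on the 7 days (points are replicates, lines the mean ± SD, n = 3, and the dashed line is the 20th percentile of the chip). Hoxd1 falls below the dashed line by day 30, the 3 arrays of day 6 coincide in Hoxb5, replicate 3 of day 5 is low in Hoxb5, Hoxc8 and Hoxd9, and Hoxc10 is highest on day 8.

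Hoxd8 was called higher than on day 4 on days 6, 8, 16, 25 and 30. Its signals were 5.76, 6.54 and 8.74 on day 4, 9.24, 8.23 and 8.34 on day 5, 9.52, 9.59 and 8.33 on day 6 and 9.94, 9.27 and 8.97 on day 8. They were 9.60, 9.42 and 8.65 on day 16, 9.20, 8.53 and 8.51 on day 25, and 8.88, 8.88 and 8.83 on day 30. Replicate 3 of day 4 was as high as the later days and overlapped days 5, 6, 16 and 25. Against day 4 (7.01 ± 1.54), day 8 (9.39 ± 0.50) was at least 3.59-fold higher (log2 difference 2.38 ± 0.56, adjusted p 0.0065), and without day 4 replicate 3 at least 5.43-fold. For day 16 the bound was 3.21-fold (adjusted p 0.00603), or 4.84-fold without day 4 replicate 3. Both calls held without each array in turn. On days 6, 25 and 30 it was at least 3.03-, 2.30- and 2.49-fold higher, but all 3 calls were lost without day 4 replicate 1 (adjusted p 0.08, 0.157 and 0.109) or without day 4 replicate 2 (0.108, 0.0907 and 0.0671). Day 6 was also lost without day 6 replicate 1 or 2 (0.117 and 0.127) and day 25 without day 25 replicate 1 (0.0988), and without day 4 replicate 3 the 3 folds were at least 4.58, 3.47 and 3.76. The F call (adjusted p 0.026) was lost without day 4 replicate 1 or 2, at 0.174 and 0.134. A second Hoxd8 probe set, on 430B, averaged 8.56 ± 1.59 on day 4, 10.96 ± 0.26 on day 6 and 9.29 ± 0.66 on day 30 and was not called in the F test.

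Hoxc8, which patterns the thoracic vertebrae, had the widest split between replicates. Its signals were 7.20, 7.95 and 4.88 on day 4, 9.83, 9.54 and 3.76 on day 5, 10.38, 9.78 and 9.50 on day 6 and 10.24, 9.82 and 10.50 on day 8. They were 9.22, 9.39 and 8.82 on day 16, 9.72, 8.53 and 8.75 on day 25, and 8.61, 8.30 and 8.50 on day 30. Replicate 3 was lowest on days 4 and 5, and every array from day 6 on lay above all of day 4. The rise on day 8 (10.19 ± 0.34) against day 4 (6.68 ± 1.60) was at least 7.06-fold (log2 difference 3.51 ± 1.03, adjusted p 0.0236). It was lost without day 4 replicate 3 (0.119), day 8 replicate 1 (0.0739) or day 8 replicate 3 (0.0691). Without all 3 arrays numbered 3 on days 4 to 6 the log2 difference was 2.61 with an adjusted p of 3.11e-04, and Hoxc8 was then also called in the F test (adjusted p 4.62e-04). The central genes Hoxb4, Hoxb7 and Hoxc6 were called in no comparison. Hoxb4 was highest on day 6, Hoxb7 on day 4 and Hoxc6 on day 25, and the day means of Hoxb7 and Hoxc6 ranged over 0.68 log2 units each.

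Of the 7 posterior genes whose chosen probe set passed the filter, 6 had their highest day mean on day 8 and Hoxd9 on day 6. Hoxc10, on 430B, which acts in the lumbar region and the hind limb, had signals of 8.60, 10.63 and 11.11 on day 4, 10.82, 10.06 and 9.96 on day 5 and 11.69, 11.42 and 10.76 on day 6. It was at 12.30, 12.21 and 12.50 on day 8, 11.46, 11.35 and 11.68 on day 16, 11.69, 10.20 and 11.03 on day 25, and 10.59, 11.08 and 10.66 on day 30. All 3 arrays of day 8 lay above every other array. Hoxc10 was 4.67-fold higher on day 8 (12.34 ± 0.15) than on day 4 (10.11 ± 1.33), with a log2 difference of 2.22 ± 0.47 and an adjusted p of 0.00775. The call held without each array in turn, but the fold was 2.76 without day 4 replicate 1. Its F call (adjusted p 0.0219) was lost without day 8 replicate 1, 2 or 3, at 0.0612, 0.0552 and 0.0759.

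Hoxd9, which acts in the lumbar region and the upper limb, had signals of 8.94, 8.85 and 8.02 on day 4, 10.88, 10.67 and 8.54 on day 5 and 10.58, 10.51 and 10.95 on day 6. It was at 9.21, 9.67 and 9.94 on day 8, 8.81, 9.07 and 8.69 on day 16, 9.68, 8.59 and 7.07 on day 25, and 8.23, 6.20 and 8.41 on day 30. All of day 6 lay above all of days 4, 8, 16, 25 and 30, and replicate 3 of day 5 was again the low one. The difference of 2.08 on day 6 against day 4 had an adjusted p of 0.0501. On day 30 (7.61 ± 1.23) against day 6 (10.68 ± 0.23) it was at least 7.04-fold lower (log2 difference -3.07 ± 0.63, adjusted p 0.0017), which held without each array in turn. Day 16 against day 6, a log2 difference of -1.82, had an adjusted p of 0.0694 in the fit to all arrays and of 0.00114 in the scan batch alone.

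Promoters of the cluster d neighbours Hoxd9 and Hoxd8 are shown (RefSeq, GRCm38.p6, both on the plus strand, with the same 3 motifs searched). Hoxd9 was lower on day 30 than on day 6, whereas Hoxd8 was called higher on day 30 than on day 4. These baselines differ, and the Hoxd8 call was lost without single day 4 arrays. The second Hoxd8 probe set averaged 10.96 on day 6, 8.72 on day 25 and 9.29 on day 30. A parting of these genes is therefore not established. Hoxd9 is at chr2:74697513-74697812 and Hoxd8 at chr2:74704365-74704664, and capitals mark AGGTCA.
Hoxd9: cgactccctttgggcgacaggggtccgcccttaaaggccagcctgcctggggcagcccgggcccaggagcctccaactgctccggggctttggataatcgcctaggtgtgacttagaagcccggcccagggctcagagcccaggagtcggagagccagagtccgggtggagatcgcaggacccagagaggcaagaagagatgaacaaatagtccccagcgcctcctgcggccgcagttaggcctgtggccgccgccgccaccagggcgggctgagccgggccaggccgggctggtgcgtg
Hoxd8: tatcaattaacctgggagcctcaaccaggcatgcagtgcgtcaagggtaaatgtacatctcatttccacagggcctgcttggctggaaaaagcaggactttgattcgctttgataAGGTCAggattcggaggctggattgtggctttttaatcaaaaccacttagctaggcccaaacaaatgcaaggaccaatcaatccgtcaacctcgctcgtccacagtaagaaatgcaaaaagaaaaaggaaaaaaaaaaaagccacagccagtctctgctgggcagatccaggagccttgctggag
The Hoxd8 window held 1 match, starting 135 bases before the gene start, and 6 CpG dinucleotides, and the Hoxd9 window held none of the 3 motifs and 20 CpG.

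Hoxa10 and Hoxa11, which act in the limb and the uterus, had their highest day means on day 8. Hoxa10 had signals of 7.41, 7.38 and 7.88 on day 4, 8.01, 7.83 and 8.16 on day 5, 9.05, 8.57 and 7.77 on day 6 and 9.47, 8.82 and 8.97 on day 8. It was at 8.23, 8.77 and 8.59 on day 16, 9.25, 8.69 and 7.84 on day 25, and 9.20, 7.98 and 8.39 on day 30. Day 8 lay above all of day 4 and day 5. It was 2.88-fold higher on day 8 (9.09 ± 0.34) than on day 4 (7.56 ± 0.28), with an adjusted p of 0.0197, a call lost without day 4 replicate 2 (0.0583) or day 8 replicate 1 (0.102). A second Hoxa10 probe set, on 430B, was not called on day 8 against day 4 (log2 difference 0.47 ± 0.72, adjusted p 0.848) or in the F test (0.876).

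Hoxa11 had signals of 8.91, 9.65 and 9.29 on day 4, 8.61, 9.42 and 8.82 on day 5, 9.95, 9.12 and 9.98 on day 6 and 10.05, 10.59 and 9.82 on day 8. It was at 10.24, 9.89 and 10.14 on day 16, 10.50, 9.72 and 9.73 on day 25, and 9.24, 9.32 and 9.08 on day 30. Days 8, 16 and 25 lay above all of days 4, 5 and 30. Its F call (adjusted p 0.0156) held without each single array and was 0.0538 without the 3 arrays numbered 3 on days 4 to 6. No comparison of 2 days called it. It overlaps the antisense gene Hoxa11os in RefSeq, and the 2 were not separated here.

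Hoxa9 is a gene of the thoracic and lumbar region also used by blood progenitors. The signals of its chosen probe set were 10.08, 10.30 and 7.21 on day 4, 8.72, 10.31 and 10.22 on day 5, 9.70, 10.31 and 10.93 on day 6 and 10.42, 10.35 and 10.49 on day 8. They were 9.80, 9.66 and 10.88 on day 16, 10.29, 9.51 and 10.56 on day 25, and 9.08, 10.82 and 9.93 on day 30. The days overlapped and it was called in no comparison. Hoxa13 and Hoxc9 were not called either; both had their highest day mean on day 8, and that of Hoxa13 moved by 0.38 log2 units over the course.

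Probe sets of 1 gene did not always share a course, and 11 of the 33 genes had more than 1. A second Hoxa9 probe set on 430A had day means of 7.32 ± 0.48 on day 4, 8.33 ± 0.90 on day 5, 9.65 ± 0.48 on day 6, 9.13 ± 0.62 on day 8, 9.06 ± 0.43 on day 16, 7.92 ± 1.04 on day 25 and 7.32 ± 0.74 on day 30. It was called in the F test (adjusted p 0.00749) and at least 4.87-fold higher on day 6 than on day 4 (adjusted p 0.017, and 0.0905 without day 6 replicate 1). It was at least 4.86-fold lower on day 30 than on day 6 (adjusted p 0.00508), which held without each array in turn. Its higher values on day 8 and day 16 against day 4 (adjusted p 0.0303 and 0.0254) were lost without day 4 replicate 1, at 0.0889 and 0.0867. Day 8 was also lost without day 4 replicate 3 or day 8 replicate 2 or 3, and day 16 without day 16 replicate 2 or 3.

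A Hoxa5 probe set on 430B was lowest on day 16, at 10.78, 9.80 and 9.99. It was 4.14-fold lower on day 16 (10.19 ± 0.52) than on day 4 (12.24 ± 0.10, adjusted p 0.00128), which held without each array in turn, while the 430A one did not pass the filter. Hoxd13, which patterns the digits, had day means between percentile 2.33 and percentile 7.36 of the array on 430A, and its 430B probe set between 49.4 and 73.1, with no call in the F test. For these genes the level and the course depend on the probe set.

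The 13 members that did not pass the filter cover central and posterior genes in the main. The highest day mean was at percentile 5.75 for Hoxb13, 7.36 for Hoxd13 and 7.64 for Hoxc4, below the 20th percentile used as a floor here. Tested without the filter, Hoxd11, a gene of the forelimb zeugopod, was called in the F test (adjusted p 0.00107, with 26.1% of 430A probe sets called). Its signals were 5.30, 5.51 and 5.34 on day 4, 4.28, 3.69 and 4.74 on day 5, 7.57, 5.57 and 7.84 on day 6 and 6.08, 6.88 and 7.24 on day 8. They were 7.28, 7.32 and 7.89 on day 16, 9.19, 7.32 and 7.47 on day 25, and 7.93, 6.99 and 7.76 on day 30. All arrays from day 6 on lay above all of days 4 and 5, but most are close to the 20th percentile, and the bound on day 30 against day 4 is at least 1.53-fold (adjusted p 0.0191). Hoxd10 and Hoxd11 overlap in RefSeq. None of the other 12 was called without the filter.

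By the day of the highest mean, 15 of the 20 genes that passed were highest on day 6 or day 8, against 27.2% of all probe sets tested on 430A, and of the 13 whose chosen probe set did not pass, 2 were. Highest on day 4 was Hoxb7, on day 5 Hoxd1, on day 6 Hoxb1, Hoxb2, Hoxb4, Hoxb5, Hoxb6 and Hoxd9, and on day 8 Hoxa3, Hoxa9, Hoxa10, Hoxa11, Hoxa13, Hoxc8, Hoxc9, Hoxc10 and Hoxd8. By chosen probe set, the 5 genes of cluster a that passed and 3 of 4 of cluster c were highest on day 8, and 5 of 7 of cluster b on day 6. Other probe sets of cluster a that passed had their highest mean on other days, Hoxa9 on day 6 (9.65), Hoxa10 on day 16 (9.83) and 2 of Hoxa3 on day 4 (11.27) and day 16 (10.14). In cluster b the second Hoxb4 probe set was highest on day 16 (8.71) and the 430B one of Hoxb3 on day 5 (11.10). In cluster d the second Hoxd8 probe set was highest on day 6 (10.96). Of the 7 posterior genes that passed 6 were highest on day 8, against 1 of 6 anterior genes and 11.5% of all 430A probe sets tested. Of the posterior genes that did not pass, only Hoxd12 was highest on day 8. A gene can pass through the 3 arrays of its highest day, so these counts describe only the members that passed. The order between neighbouring days is not established by test: on day 8 against day 6, scanned together, no Hox gene was called, 4 of 20 had an unadjusted p under 0.05, and 0.114% of all 430A probe sets were called. None was called on day 6 against day 5, day 16 against day 8, day 25 against day 16 or day 30 against day 25 (3, 3, 0 and 1 of 20 at an unadjusted p under 0.05; 0.102%, 3.07%, 0.635% and 0% of 430A probe sets called).

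Of genes known to act on the clusters, the caudal gene Cdx2 had its highest means on days 5 and 6. It was the one gene of 6 in the caudal and ParaHox list to pass the filter. Its signals were 9.97, 10.00 and 7.04 on day 4, 10.96, 11.44 and 10.49 on day 5, 9.73, 10.51 and 11.00 on day 6 and 9.12, 7.02 and 9.97 on day 8. They were 6.80, 8.32 and 9.59 on day 16, 7.31, 8.28 and 9.07 on day 25, and 5.57, 6.47 and 8.12 on day 30. The 3 arrays of day 5 all lay above those of days 4, 8, 16, 25 and 30. It was called in the F test (adjusted p 0.00688) and its fall by day 30 from the level of day 6 was 8.43-fold or more (adjusted p 0.00406). Both calls held without each array in turn. Day 30 against day 6 was added after the values were seen, and its days were scanned apart. On day 30 against day 4 Cdx2 was not called (log2 difference -2.285, adjusted p 0.0507).

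Of 7 tested Hox cofactors of the TALE class, which bind DNA beside Hox proteins, 2 rose on day 8 against day 4 and none fell. Of all 430A probe sets, 9.63% rose and 6.81% fell (list median 0.08, all 430A probe sets 0.04). Meis1 had 10.73, 10.53 and 10.68 on day 8 and 8.04, 5.15 and 4.24 on day 4, at least 10.1-fold higher (adjusted p 0.015). This was lost without day 4 replicate 2 (0.056), day 4 replicate 3 (0.0683) or day 8 replicate 1 (0.0526). Replicate 3 of Meis1 was low on days 4, 5 and 6, at 4.24, 3.57 and 6.24, as it was for several Hox genes on day 5. Meis2 had 11.36, 11.25 and 10.48 on day 8 and 9.14, 9.90 and 8.61 on day 4, 3.52-fold higher (adjusted p 0.0127), lost without day 4 replicate 3 (0.0603) or day 8 replicate 1 (0.065). On day 30 against day 4, Pbx3 was 3.27-fold lower (adjusted p 0.0113), with a log2 difference of -1.71 that became -0.86 without day 30 replicate 2 (adjusted p 0.0812).

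Among genes that make or clear retinoic acid, a signal that turns on anterior Hox genes, most calls for a rise came on day 16 and later. Of 11 tested in the retinoic acid list, 1 rose on day 8 against day 4, 4 rose and 1 fell on day 16 against day 6, and 5 rose and 2 fell on day 30 against day 4 (list median 1.21, all 430A probe sets -0.03). Of all 430A probe sets, 9.63% rose and 6.81% fell on day 8 against day 4. On day 16 against day 6, 6.76% rose and 4.5% fell, and on day 30 against day 4, 14.2% rose and 13.9% fell. Aldh1a1, which makes retinoic acid, had 10.28, 10.30 and 10.40 on day 16 and 3.73, 4.94 and 4.06 on day 4, at least 10.4-fold higher (adjusted p 1.34e-06). Cyp26b1, which breaks it down, had 13.31, 12.59 and 12.84 on day 30 and 10.57, 8.25 and 7.75 on day 4, 16.6-fold higher (adjusted p 3.32e-05), and the log2 difference of 4.06 was 4.91 without day 4 replicate 1. Dhrs3, which turns retinaldehyde back to retinol, was at least 11.9-fold higher on day 16 than on day 4 (adjusted p 2.12e-05). Aldh1a2, the main retinoic acid enzyme of the early embryo, had 9.58, 9.61 and 9.13 on day 16 and 7.81, 5.65 and 6.24 on day 4, at least 4.61-fold higher (adjusted p 0.0158). That call was lost without day 4 replicate 2 (0.0644), day 16 replicate 1 (0.0564) or day 16 replicate 2 (0.0554).

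**Figure D4:**
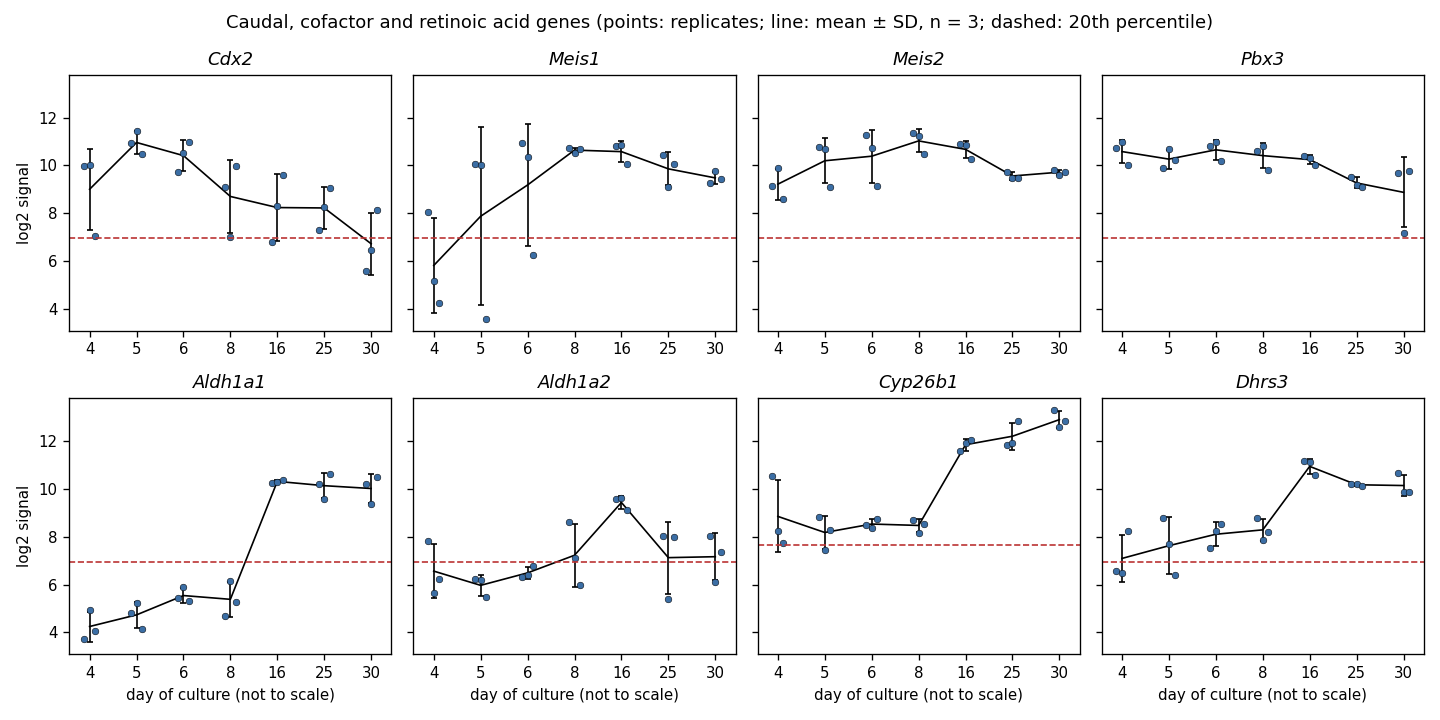
Log2 signal of Cdx2, 3 TALE cofactors and 4 retinoic acid genes on the 7 days (points are replicates, lines the mean ± SD, n = 3, and the dashed line is the 20th percentile of the chip). Cdx2 is highest on days 5 and 6, Meis1 replicate 3 is low on days 4 to 6, and Aldh1a1, Cyp26b1 and Dhrs3 step up between day 8 and day 16.

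Among chromatin regulators of the clusters, calls on day 30 against day 4 are set beside the 14.2% of all 430A probe sets that rose and the 13.9% that fell. In the Polycomb list, whose proteins hold Hox clusters silent, 1 of 19 tested rose and 6 fell on day 30 against day 4 (list median -0.56, all 430A probe sets -0.03). Phc1, a subunit of Polycomb repressive complex 1, had 10.09, 10.01 and 9.66 on day 30 and 12.07, 13.05 and 13.76 on day 4, 8.21-fold lower (adjusted p 1.86e-06). Jarid2, which joins Polycomb repressive complex 2, had 11.99, 11.45 and 12.13 on day 30 and 13.61, 14.23 and 14.19 on day 4, 4.45-fold lower (adjusted p 7.27e-07). Both calls held without each array in turn. On day 16 against day 4, 3 of the 19 rose and 6 fell, beside 14.1% and 11.5% of all 430A probe sets. Of those that rose, Ring1 did so by a factor of at least 6.19 (adjusted p 0.00919) and Cbx6 2.93-fold (adjusted p 0.00157). In the Trithorax and demethylase list, whose proteins keep Hox genes active, 2 of 9 fell and none rose on day 30 against day 4, with 13.9% of all 430A probe sets lower.

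Of genes beside the clusters or acting with them, Evx1, at the posterior end of cluster a, had 5.86, 6.10 and 6.56 on day 30 and 10.82, 10.99 and 8.54 on day 4. It was at least 8.96-fold lower (adjusted p 0.00243), with a log2 difference of -3.94 that was -4.73 without day 4 replicate 3. In the list of cluster neighbours, 2 of 11 tested fell on day 30 against day 4 and none rose, beside the same 13.9% and 14.2% of all 430A probe sets, which also stand beside the next 3 lists. Of 17 tested axial progenitor and posterior patterning genes, 5 fell and none rose (list median -0.84). In the list of homeobox genes of skeletal mesenchyme 1 of 12 rose and 1 fell, and in the limb field list 1 of 6 rose and 2 fell. Prrx1, a homeobox gene of limb mesenchyme, had 11.26, 11.11 and 9.65 on day 16 and 7.14, 4.11 and 5.66 on day 4, at least 12.6-fold higher (adjusted p 2.01e-04). Its log2 difference of 5.04 was 5.79 without day 4 replicate 1 and 4.28 without day 4 replicate 2.

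Markers of cell types moved over the same days as the Hox genes. The summed signal of 11 blood markers was 5404 to 5693 on day 4, 5027 to 102025 on day 5, 19453 to 59204 on day 6, 17130 to 71574 on day 8 and 12008 to 17345 on day 16. The lowest array of day 5 was replicate 3, which was also the lowest in 10 of 18 Hox genes. That of 8 endothelial markers was 3662 to 13009 on day 4, 10392 to 19451 on day 6, 13250 to 15463 on day 8 and 5401 to 8149 on day 16. In the blood list 5 of 11 tested rose on day 8 against day 4 and in the endothelial list 4 of 7. Of all 430A probe sets, 9.63% rose in that comparison. Tie1 of the endothelial list lay under the 20th percentile on 20 of 21 arrays.

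The 11 mesoderm and fibroblast markers summed to 4383 to 16094 on day 4 and 10373 to 54890 on day 6. They summed to 124601 to 229201 on day 8 and 55300 to 95458 on day 30. On day 8 against day 4, 9 of 11 rose and 1 fell, beside 9.63% and 6.81% of all 430A probe sets. These shares also stand beside the osteoblast and neural counts below. The 7 osteoblast markers on the chips summed to 2755 to 8378 on day 4, 36888 to 48645 on day 8 and 27662 to 32102 on day 30. A sum of signals is weighted to its strongest members. The highest log2 signal on any array was 15.68 for Col1a1 and 13.32 for Pth1r. It was 11.17 for Sp7, 10.89 for Alpl, 9.04 for Ibsp, 8.84 for Dmp1 and 7.80 for Phex. Of the 4 that passed the filter, 1 rose on day 8 against day 4 and 1, Alpl, fell. The fall of Alpl was at least 3.82-fold (adjusted p 0.0178) and was lost in 2 of 21 fits without 1 array. Phex lay under the 20th percentile on 17 of 21 arrays. The 11 endoderm markers summed to 6385 to 24679 on day 4 and 150304 to 167131 on day 30. Between these days 9 of 11 rose, beside 14.2% of all 430A probe sets. The 8 pluripotency markers summed to 21738 to 125805 on day 4 and 3363 to 3929 on day 30. Between these days 5 of 8 fell, beside 13.9% of all 430A probe sets. On days 4, 5 and 6 the highest sum of pluripotency markers was in replicate 3, at 125805, 56482 and 24025. Of 5 neural markers tested, 1 fell on day 8 against day 4, and Olig2, Neurog2 and Sox1 lay under the 20th percentile on 20, 17 and 15 of 21 arrays. The part of changing cell types in the Hox results was not tested.

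**Figure D5:**
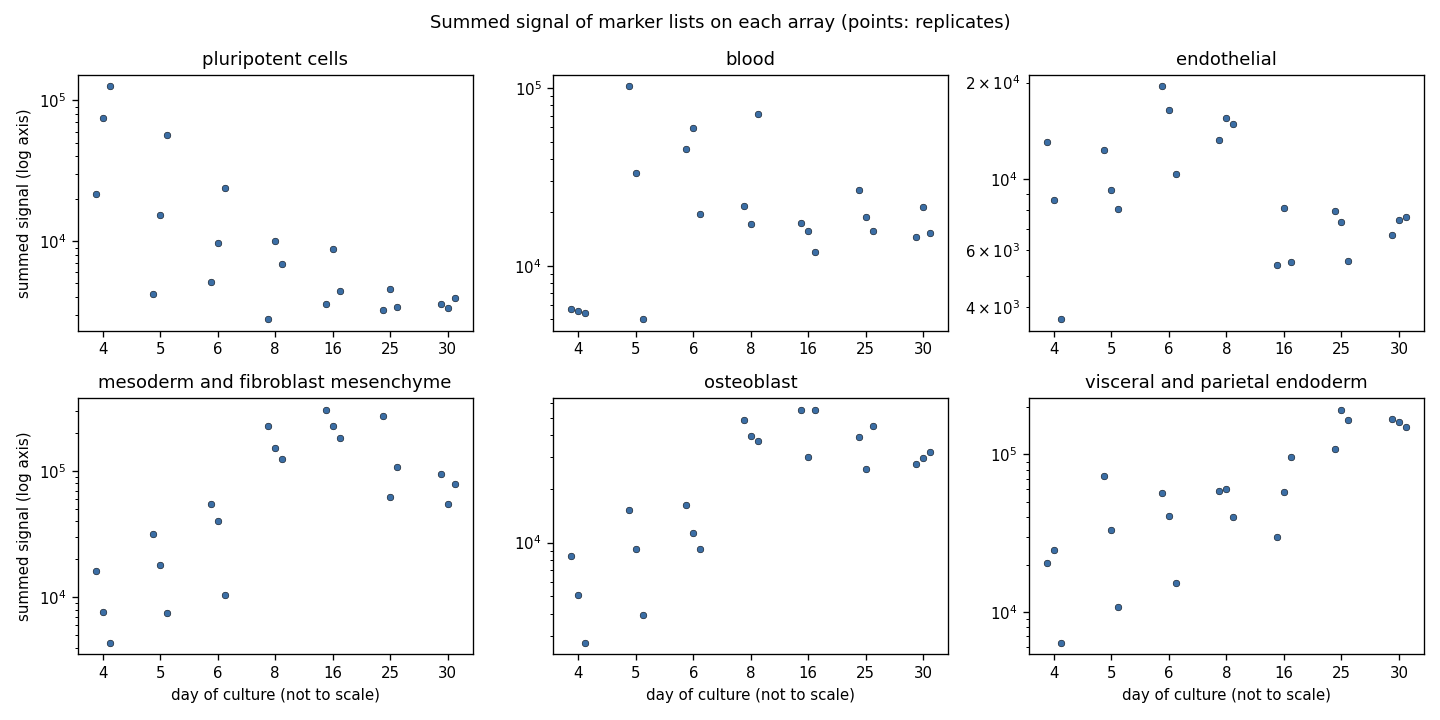
Summed signal of 6 marker lists on each of 7 days (log axis, points are replicates of a day). The highest blood sum is on day 5 (102025), and the blood sums of day 8 (17130 to 71574) overlap those of days 25 and 30. Endothelial sums are high on days 6 and 8. Mesoderm, fibroblast and osteoblast sums step up on day 8, and the endoderm sum is highest on days 25 and 30. Replicate 3 is the lowest of its day in 5 of the 6 lists on days 4 to 6, the pluripotency list being the exception.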

How the data were processed

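The deposited signal was made by the authors with MAS5, per the submitters' processing notes, and its scaling to a common trimmed mean near 1501 per array on 430A and 1500 on 430B was checked. Signals were taken to log2 here with no offset. Each chip was fitted in limma 3.58.1 (R 4.3.3) with day as a factor over 21 arrays (14 residual degrees of freedom, eBayes with a trend) on the 16705 and 18260 probe sets above their array's 40th percentile on at least 3 arrays. Adjusted p-values are two-sided, by Benjamini-Hochberg over all of a chip. No depth exists for arrays; their number limits the precision. The members, lists and comparisons were chosen with earlier results of these data known, and day 30 against day 6 after the values were seen. Genes named from other lists were picked from the 4 largest changes past the threshold on day 30, 16 or 8 against day 4, or, where none passed, the smallest adjusted p (Cdx2); not all of them are named, and which to name was chosen after values were seen. All Hox genes are accounted for. In the scanner records, replicate 3 of days 8 and 16 carries the number 4. The fit was tested on simulated data. Figures used matplotlib.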

Additional observations from a re-analysis of the deposited data

How the results depend on the processing

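Among the Hox gene calls between 2 days in the fits to all arrays, changing one choice at a time reversed no direction. Leaving out each of the 21 arrays, the number of Hox genes called ranged from 7 to 10 in the F test (8 with all arrays), from 0 to 5 on day 6 against day 4 (3), from 2 to 5 on day 8 (5), from 1 to 3 on day 16 (1), from 0 to 3 on day 25 (2) and from 1 to 4 on day 30 (2). It was 0 to 5 on day 16 against day 6 (3), 4 to 5 on day 30 against day 6 (5), and 0 to 1 on day 5 against day 4 and on day 8 against day 6 (0 each). With log2(signal + 50), 4 genes were called on day 16 against day 4, 6 on day 16 against day 6, 5 on day 6 against day 4 and 1 on day 8 against day 6. Above the 60th percentile, with 12 genes left to test, these were 0 on day 16, 1 on days 25 and 30 and 3 on day 8 against day 4. Counting any probe set of a gene gave 3 on day 16 against day 4 and 1 on day 16 against day 8. No filter gave 2 on day 16 against day 4, with 18.2% of all 430A probe sets called. With the replicate number as a replicate block, 5 were called on day 6 against day 4 and 1 on day 8 against day 6, and the pairing was not made part of the design. The labels give it no source, and over 63 same-number pairs the correlation of deviations from day means ranged from -0.0999 to 0.355 on 430A (16 pairs over 0.1) and from -0.0432 to 0.114 on 430B (1 pair). Yet 16 of 21 arrays on 430A and 13 of 21 on 430B correlated best with their own number, a hint from the data and not the design. With a block by the number in the scanner records, day 6 against day 4 gave 5, day 16 against day 4 gave 2 and day 8 against day 6 gave 1. With scan batch as a random block, 5 were called on day 6 and 2 on day 16 against day 4. Within 1 scan batch, day 16 against day 6 gave 5, with 15.8% of all 430A probe sets called. No share of all probe sets called is given for the offset, the 60th percentile, any probe set, the blocks or leaving out 1 array. Whether those counts moved with the whole chip therefore cannot be read from them. Without the 3 arrays numbered 3 on days 4 to 6, an alternative chosen after the data were seen as were the last block and the batch alone, the counts were 2 on day 5 and 4 on each of days 16, 25 and 30 against day 4. The cause was not tested. For single genes, 244 of 257 values under other settings and 538 of 609 without 1 array kept their call, and the remaining 13 and 71 lost it, with no direction reversed. With the block by scanner number, Hoxa10 on day 8 against day 4, Hoxb6 on day 16 against day 6 and the F test of Hoxc10 lost theirs (adjusted p 0.0522, 0.0887 and 0.112).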
